A study of Homo sapiens with 22 samples.

Results

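Trimethylation of histone H3 at lysine 4 (H3K4me3) was mapped by ChIP-seq, with an EpiCypher antibody, in TC-32 cells, an Ewing sarcoma line that carries the EWSR1::FLI1 fusion, after transfection of 20 nM negative-control siRNA (siNEG) or 20 nM siRNA against FLI1 (siFLI1). The members are 4 peak lists, 2 per siRNA, of the 14 peak lists and 22 samples of the series; the others are H3K27ac, ETS1 and input samples from the same line. All cells, controls included, are from 1 cell line, were transfected with Lipofectamine RNAi-Max and hold the fusion at the start. The labels give no time after transfection and do not say whether replicates 1 and 2 are separate transfections, so that errors cover only the spread between these lists, which may be technical. The 4 lists were merged on chromosomes 1 to 22 and X wherever intervals overlapped by 1 bp or more, which gave 20727 regions. Of these, 12984 were in all 4 lists (shared regions), 449 were in both siFLI1 lists and neither siNEG list (gained), 586 were in both siNEG lists and neither siFLI1 list (lost), and 5406 were in 1 list only. The width of a region in a list is the number of its bases that the list covers.

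H3K4me3 marks the promoters of active and poised genes. It is written by SET1 and MLL complexes and is found on the nucleosomes around the transcription start, with a broader domain downstream of the start at highly transcribed genes and at genes that define a cell type. EWSR1::FLI1 joins the activation domain of EWSR1 to the ETS DNA-binding domain of FLI1. It acts on single ETS sites, whose core is GGAA, and on GGAA microsatellites, where it opens chromatin and recruits activators. It also lowers many genes of the mesenchymal programme, including IGFBP3, LOX and DKK1.

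Sequences of promoter windows and of GGAA runs were read at some of the regions named below. The first 3 are the 250 bases upstream of the RefSeq start of IGFBP3, THBS1 and ACTA2 (GRCh38.p14), whose promoters held H3K4me3 in both siFLI1 lists only. Capitals mark the ETS letters CCGGAA (found at IGFBP3 only) or the TEAD letters GGAATG (at THBS1 and ACTA2 only), on either strand. The windows are chr7:45921273-45921522 (minus strand), chr15:39580829-39581078 (plus strand) and chr10:88952774-88953023 (minus strand).
IGFBP3: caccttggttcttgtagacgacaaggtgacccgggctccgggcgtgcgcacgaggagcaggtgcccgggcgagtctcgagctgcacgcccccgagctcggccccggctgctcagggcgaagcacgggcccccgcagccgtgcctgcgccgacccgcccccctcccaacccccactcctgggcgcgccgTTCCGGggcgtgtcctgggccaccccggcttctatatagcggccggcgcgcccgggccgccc
THBS1: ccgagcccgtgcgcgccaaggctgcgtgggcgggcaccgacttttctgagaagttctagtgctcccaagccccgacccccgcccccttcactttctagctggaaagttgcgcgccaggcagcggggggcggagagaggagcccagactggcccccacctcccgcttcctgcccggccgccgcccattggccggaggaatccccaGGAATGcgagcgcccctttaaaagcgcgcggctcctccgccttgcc
ACTA2: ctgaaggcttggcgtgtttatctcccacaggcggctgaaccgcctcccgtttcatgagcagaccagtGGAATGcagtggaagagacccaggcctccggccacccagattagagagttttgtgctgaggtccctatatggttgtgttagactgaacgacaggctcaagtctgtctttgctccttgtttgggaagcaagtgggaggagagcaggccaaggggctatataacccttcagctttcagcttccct

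The next 5 are GGAA runs (hg38, shown on the strand that reads GGAA) inside or within 1 kb of promoter regions that were narrower in siFLI1. They are the 5 with the strongest narrowing among 12 coding promoters considered for printing, which had a run of 8 or more units outside annotated exons. The 12 need not be all such promoters. Capitals mark the run, with 20 bases on each side that the coordinates include. The runs in the windows at CCK (chr3:42266817-42266908), KIFC3 (chr16:57847174-57847289) and SLC23A2 (chr20:5011222-5011325) have their midpoints upstream of the coding start, by 2916, 697 and 981 bp. Those in the windows at DPF1 (chr19:38226975-38227054) and CYP4F22 (chr19:15509838-15509925) lie 1678 and 1357 bp downstream of it. The runs have 13, 19, 16, 10 and 12 units.
CCK: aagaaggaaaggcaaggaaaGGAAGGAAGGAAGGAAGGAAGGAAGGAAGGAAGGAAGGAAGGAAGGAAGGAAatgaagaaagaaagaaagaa
KIFC3: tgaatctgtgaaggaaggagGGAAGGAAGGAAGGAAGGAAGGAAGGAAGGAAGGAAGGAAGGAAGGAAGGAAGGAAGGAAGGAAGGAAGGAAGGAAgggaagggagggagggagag
SLC23A2: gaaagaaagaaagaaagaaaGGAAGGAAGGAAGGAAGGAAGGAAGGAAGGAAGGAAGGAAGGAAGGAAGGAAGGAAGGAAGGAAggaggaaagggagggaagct
DPF1: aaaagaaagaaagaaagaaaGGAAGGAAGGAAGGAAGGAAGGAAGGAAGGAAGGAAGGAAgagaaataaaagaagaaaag
CYP4F22: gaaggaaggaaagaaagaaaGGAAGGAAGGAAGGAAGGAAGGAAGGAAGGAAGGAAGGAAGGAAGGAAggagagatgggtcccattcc

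The 4 lists as wholes differed little in extent and more in which kind of region they held. H3K4me3 covered 43.3 and 44.7 Mb in the siNEG lists and 40.5 and 41.7 Mb in the siFLI1 lists. The log2 ratio of covered bases was -0.10 (pooled SD 0.031, n = 2 per arm; exact permutation test, two-sided, p = 0.333). That p is the smallest that 2 lists against 2 can give in this test, so no single value per list can pass 0.05 in it. Regions at promoters, here within 1 kb of any annotated transcript start, made up 76.2% and 74.2% of the siNEG lists and 79.4% and 79.3% of the siFLI1 lists. Intervals under 1 kb made up 39.2% and 40.9% of the siNEG lists and 35.6% and 35.7% of the siFLI1 lists. The median fold enrichment that the authors gave each interval was 20.1 and 17.8 in siNEG and 24.9 and 24.8 in siFLI1. Of the regions present in the siNEG arm, 25.3% were in only 1 of its lists, against 15.7% in the siFLI1 arm. Read depth is unknown, and the part of depth or enrichment in these differences was not tested. The 8 Ewing sarcoma marker genes had a promoter region in all 4 lists, while none of the 7 haematopoietic and none of the 4 muscle markers had one. Of the other marker lists, 4 of 6 fibroblast, 2 of 7 epithelial (KRT8 and KRT18) and 1 of 5 neuroblast genes (HAND2) had one in all 4 lists.

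Gained regions lay mostly more than 10 kb from shared regions. They were 2.17% of all merged regions, and 323 of the 449 (71.9%, exact 95% interval 67.5 to 76.0%) lay at a promoter, 255 of them at a coding one; over all 20727 regions the share was 72.8%. Of the gained regions, 72.4% lay more than 10 kb from any shared region. The promoter of IGFBP3, which binds insulin-like growth factors, had no interval in either siNEG list and 3985 and 4040 bp in the siFLI1 lists. It was the only gained region whose mean percentile of fold enrichment within its lists was above 50 (58.4). THBS1, the matrix glycoprotein thrombospondin 1, had 0 and 0 bp in siNEG against 3354 and 2884 bp in siFLI1. The smooth-muscle actin gene ACTA2 had 0 and 0 bp at its own start against 3080 and 2982 bp, while a region at another of its starts was in all 4 lists. In each of these cases the arms do not overlap, by the definition of gained.

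The other 12 of the 15 gained coding promoters with the highest percentiles reached at most 2962 bp. ABL2, a tyrosine kinase, had 1976 and 2213 bp in siFLI1. CD24, a surface glycoprotein, had 2374 and 2962 bp. CRYAB, a small heat-shock protein, had 2825 and 2612 bp, with a siNEG interval 990 bp away. The neural adhesion molecule L1CAM had 2019 and 1595 bp, and the collagen gene COL5A3 had 1318 and 1165 bp. IRF9, a transcription factor of the interferon response, had 1020 and 1206 bp. HIC1, SEMA3C, PRICKLE1, RGS3, CCDC80 and CLASP2 had between 1002 and 2148 bp. All 15 regions held the transcript start. When absence was also required within 1 kb of the region, 13 of the 15 still counted as gained, without CRYAB and HIC1.

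Away from promoters, the 5 gained regions with the highest percentiles covered 620 to 2622 bp. They included 928 and 1073 bp at 2156 bp from a start of the protocadherin gene PCDH8, and 680 and 783 bp in an intron of TBCA, a tubulin chaperone. The nearest named transcripts of the other 3 were the pseudogene MYLKP1, the small RNA gene RN7SKP37 and ENSG00000291142.

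Lost regions were mostly small intervals within 1 kb of shared regions. They were 2.83% of merged regions. Only 209 of the 586 (35.7%, exact 95% interval 31.8 to 39.7%) lay at a promoter and 257 (43.9%) were intronic, against 72.8% and 17.7% of all regions. Regions in 1 list only had like shares, 31.4% at promoters and 48.4% intronic. A shared region lay within 1 kb of 446 of them (76.1%), against 83 (18.5%) of the gained regions and 72.6% of the regions in 1 list only. A mean width of 1 kb or more was reached by 34 lost regions (5.80%) and by 100 gained ones (22.3%). When absence was also required within 1 kb, the lost regions fell to 172 and the gained ones to 365. No lost region had a mean percentile above 50.

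Among coding promoters the lost regions with the highest percentiles were at PADI2, which citrullinates proteins and histones (810 and 1048 bp in siNEG), and at PGLYRP2, a peptidoglycan amidase (594 and 795 bp). CDH20, a cadherin, had the widest of the 15, with 1531 and 1750 bp in siNEG and none in siFLI1. CNIH2, an auxiliary subunit of AMPA receptors, had 606 and 1033 bp, and RUBCNL, an autophagy regulator, had 1002 and 1234 bp. The catalytic subunit gene of DNA polymerase delta, POLD1, had 643 and 1060 bp, 1356 bp from siFLI1 signal. NHSL1, WDR59, ADGRA1, C1QL1, PALM3, SPATA32, ABCA13, ARHGAP45 and MCTP1 completed the set, with 410 to 1282 bp. WDR59 and MCTP1 no longer counted as lost when absence was required within 1 kb, nor POLD1 when an overlap of 50% of the shorter interval was required. Away from promoters, an interval of 2159 and 2295 bp in an intron of SLC3A2, the heavy chain of amino-acid transporters, was the strongest, 518 bp from siFLI1 signal. The others were in an intron of GLG1 and near ENSG00000230030, ENSG00000212712 and ATP5MGP2.

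Among the 12984 shared regions, 246 (1.89%) were wider and 468 (3.6%) were narrower in siFLI1 (limma on log2 width, adjusted p under 0.05). Wider regions were small in the controls, with median widths of 1239 and 1337.5 bp in siNEG and 2783 and 2809 bp in siFLI1. Of the 246, 132 at least doubled in width, and 71 went from under 1 kb in both siNEG lists to 1 kb or more in both siFLI1 lists. Narrower regions were broad in the controls, with median widths of 4953 and 5109 bp in siNEG and 3368 and 3347.5 bp in siFLI1. Of the shared regions over 8 kb, 36 of 187 (19.3%) were narrower and 2 were wider, while of those from 1 to 2 kb, 85 of 2048 (4.15%) were wider and 39 narrower. The median log2 difference was -0.11 over 8 kb and -0.12 from 4 to 8 kb, and the SD over regions was 0.15 over 8 kb against 0.54 under 1 kb. The median log2 width difference over all shared regions was -0.07, and after centring each list on its median the split was 361 wider and 241 narrower. The counts rest on having 2 lists per arm. With the lists merged again without siFLI1 replicate 1 the test called 3 wider and 19 narrower, without siFLI1 replicate 2 it called 29 and 59, without siNEG replicate 1 it called 143 and 54, and without siNEG replicate 2 it called 135 and 28.

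**Figure D1:**
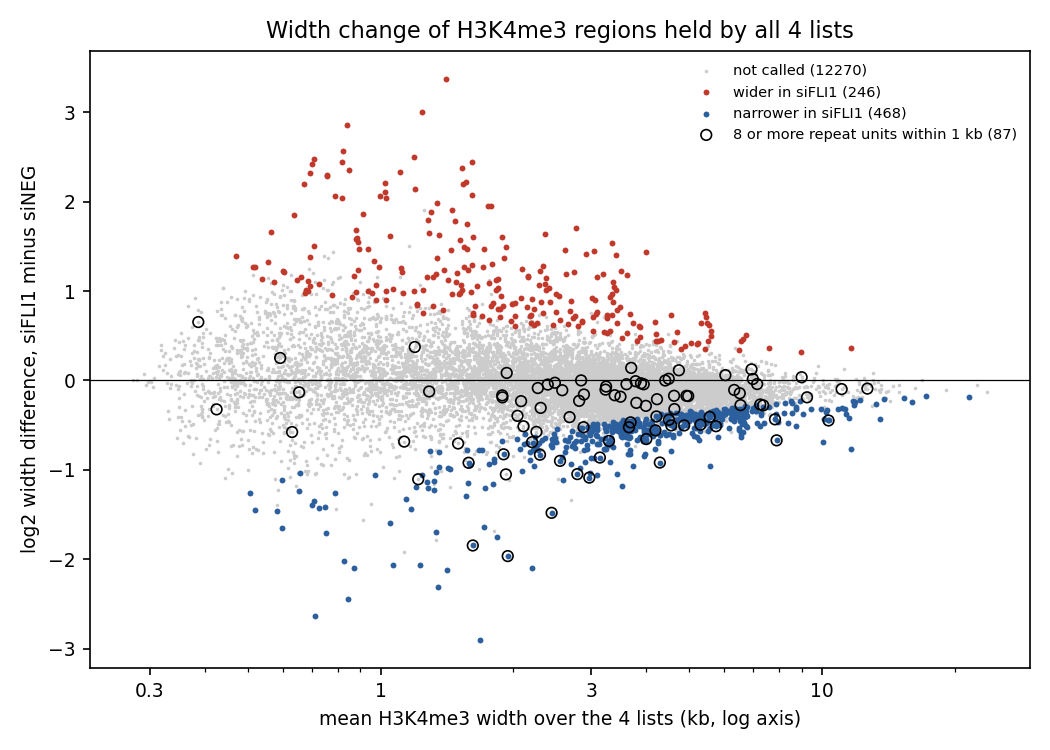
Log2 width difference (siFLI1 minus siNEG, vertical) against the mean width over the 4 lists (kb, log axis) for the 12984 H3K4me3 regions in all 4 lists, 1 point per region. Red points are the 246 wider regions, which lie mostly at small widths, blue points the 468 narrower ones, which reach the broadest regions, and rings mark the 87 regions with a run of 8 or more GGAA units within 1 kb, 75 of which lie below 0.

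The strongest widening was at PRDM1, a transcriptional repressor, whose region measured 467 and 407 bp in siNEG and 4517 and 4533 bp in siFLI1. Both siFLI1 values lay far above both siNEG values (log2 difference 3.38, SE 0.17, limma adjusted p = 0.0015), and the call held in each alternative fit in which the region was tested. TNS3, a tensin that ties integrins to actin, had 325 and 350 bp in siNEG and 1804 and 2210 bp in siFLI1 (log2 2.57). TGFBI, a secreted matrix protein induced by TGF-beta, went from 388 and 645 bp to 2634 and 3033 bp (log2 2.50). SULF2, which removes sulphate from heparan sulphate, went from 486 and 986 bp to 3894 and 3643 bp (log2 2.44). The peptide hormone gene EDN1 had 787 and 664 bp in siNEG and 3653 and 3113 bp in siFLI1 (log2 2.22). The cytolinker PLEC had a log2 difference of 2.33, the tetraspanin CD82 of 2.36 and the guanine nucleotide exchange factor TRIO of 2.42. TRIM55, CACNA2D3, CCDC3, CREB3L1, NT5C2, RTN4 and SEMA5B completed the 15, with log2 differences of 2.21 to 3.0. In siNEG the 15 regions measured 275 to 986 bp, and the shortest interval in each list is 275 bp.

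The strongest narrowing was at PLEKHA7, an adherens-junction protein, whose region measured 4363 and 4829 bp in siNEG and 520 and 726 bp in siFLI1 (log2 -2.90, SE 0.20, limma adjusted p = 0.0035). Both siFLI1 widths were under 1 kb there. PTF1A, a bHLH factor of the hindbrain and pancreas, went from 1785 and 2178 bp to 275 and 474 bp (log2 -2.45). FABP7, the fatty-acid binding protein of radial glia, went from 2850 and 3170 bp to 317 and 1165 bp (log2 -2.31, and -1.37 without siFLI1 replicate 1). TFAP2B, a neural crest factor, went from 2558 and 3413 bp to 432 and 1068 bp (log2 -2.12). The morphogen SHH went from 3122 and 3645 bp to 905 and 1106 bp (log2 -1.75), and the neuropeptide CCK from 4004 and 3678 bp to 1096 and 882 bp (log2 -1.96). VCAN, which encodes the matrix proteoglycan versican, went from 1792 and 1825 bp to 644 and 275 bp (log2 -2.10). SREBF1, the regulator of lipid synthesis, went from 2937 and 3114 bp to 1081 and 874 bp (log2 -1.64). SYT6, NCKAP5, DOC2A, METTL2B, CA14, EPB41L3 and CRABP1 had log2 differences from -2.07 to -1.35. In all 15, both siFLI1 widths lay below both siNEG widths, but the 15 were chosen by these same widths. The share of all shared regions with such widths is not given here.

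**Figure D2:**
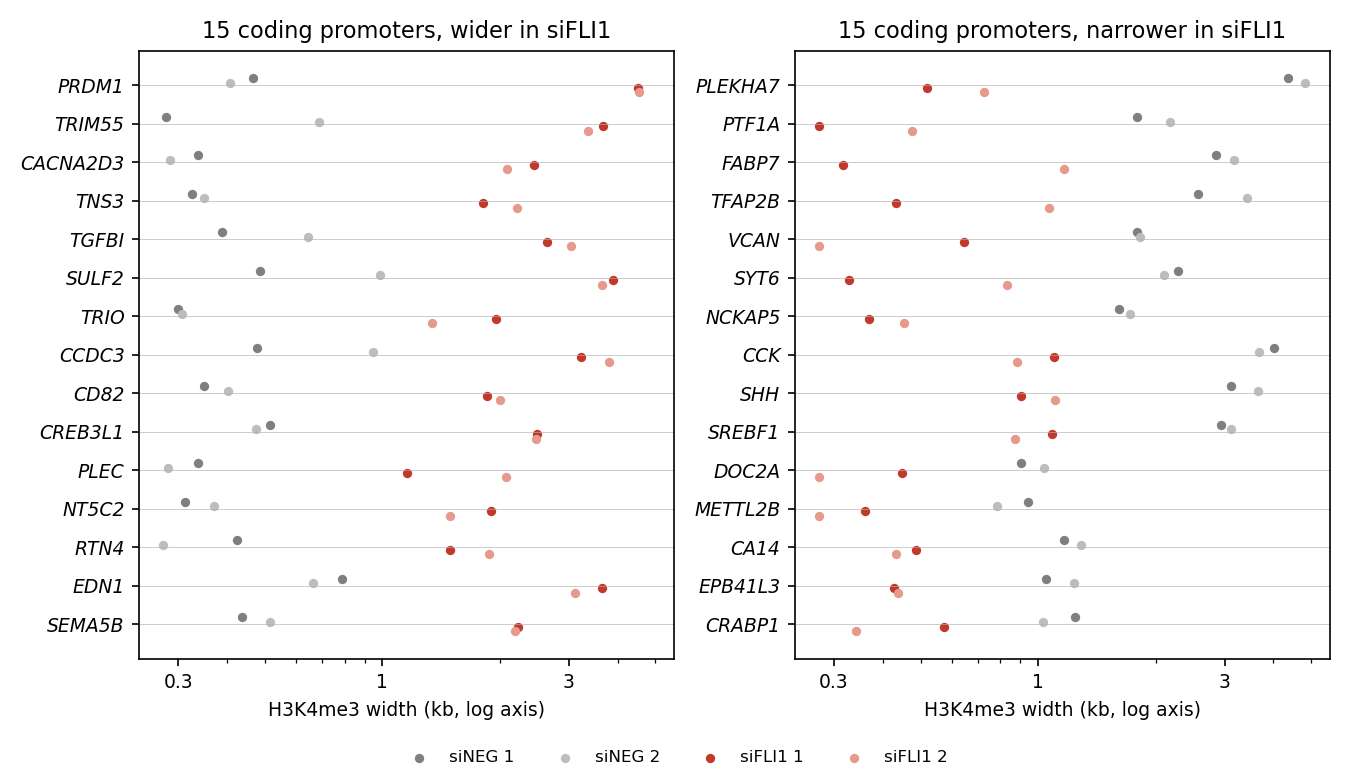
H3K4me3 width (kb, log axis) in each of the 4 lists at the 15 coding promoters with the largest widening (left) and the largest narrowing (right) among regions past the test, 1 point per list. At PRDM1 the siNEG points are at 467 and 407 bp and the siFLI1 points at 4517 and 4533 bp, and at PLEKHA7 the siNEG points are at 4363 and 4829 bp and the siFLI1 points at 520 and 726 bp.

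In base pairs, the change of width lay mostly on the gene-body side of the start, which is also the longer side of the regions. Edges were measured from the most upstream coding start in 8200 shared promoter regions that hold the starts of 1 coding gene, 129 of them wider and 254 narrower. In wider regions the median downstream edge lay 1285 and 1311 bp from the start in siNEG and 2652 and 2842 bp in siFLI1, while the upstream edge moved from 331 and 332 bp to 561 and 527 bp. In narrower regions the downstream edge lay at 3859 and 3881 bp in siNEG and at 2766.5 and 2637.5 bp in siFLI1, and the upstream edge at 978 and 1027 bp and at 723 and 702 bp. The downstream edge moved further than the upstream one in 124 of 129 wider regions (96.1%), 218 of 254 narrower regions (85.8%) and 5689 of all 8200 (69.4%). In proportion to their median lengths, both sides of narrower regions shrank about alike, while in wider regions the downstream side grew more. The wider and narrower sets were chosen by width, so these values describe where the change lay and carry no test. Over all 8200 regions the median upstream edge differed by 3 bp between arms and the median downstream edge by -196.25 bp (pooled SD 39.5, n = 2 per arm; exact permutation test, two-sided, p = 0.333).

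**Figure D3:**
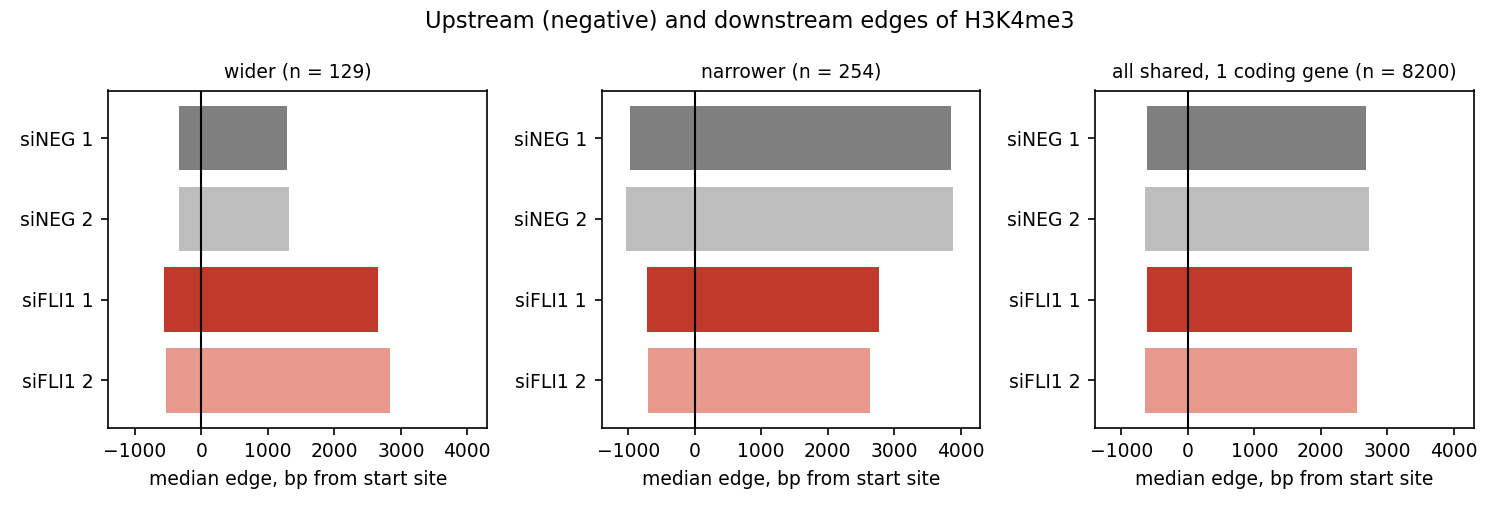
Median distance of the upstream (negative) and downstream edges of H3K4me3 from the coding start site (bp), 1 bar per list, for 129 wider, 254 narrower and all 8200 shared promoters of 1 coding gene. The downstream ends of the bars move by more than the upstream ends, from about the 1285 to the 2842 bp mark in wider regions and from 3881 to 2637.5 bp in narrower ones.

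GGAA runs were counted inside the merged region and 1 kb on each side. A run of 4 or more units lay at 31 of 468 narrower regions (6.62%, exact 95% interval 4.54 to 9.27%), 1 of 246 wider regions (0.407%, 0.0103 to 2.24%) and 152 of 12270 regions that were not called (1.24%, 1.05 to 1.45%). Runs of 8 or more units lay at 24 narrower regions (5.13%), at 63 regions not called (0.513%) and at 0 of 246 wider ones, which allows a share of up to 1.22%. The shares were also taken by width class. Among regions of 2 to 4 kb a run of 4 or more units was near 12 of 173 narrower regions (6.94%) and 62 of 5408 not called (1.15%), and among those under 2 kb near 4 of 57 (7.02%) and 35 of 3508 (0.998%). Over 8 kb the order was the other way, with 1 of 36 narrower (2.78%) and 6 of 149 not called (4.03%). The intervals count regions only.

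Taken without any width call, the 87 shared regions with a run of 8 or more units had median widths of 3978 and 4069 bp in siNEG and 3033 and 3099 bp in siFLI1. Their median log2 width difference was -0.27, with 75 of 87 below 0, against -0.07 and 63.2% of the 12800 regions with no run. The 97 regions with runs of 4 to 7 units had a median of -0.05. Leaving out any 1 list gave medians of -0.30 to -0.24 for the long runs, and centring each list on its median gave -0.18. Most runs were not covered by H3K4me3 intervals themselves: of the 48 runs near narrower regions, 30 were in none of the 4 H3K4me3 lists. The same held for 123 of 199 runs near regions not called, a like share. H3K27ac covered 7 of the 48 in both siNEG lists and neither siFLI1 list, and none in the opposite pattern, against 4 and 5 of 199 runs near regions not called. At the runs printed above, H3K27ac covered that of SLC23A2 in both siNEG lists and neither siFLI1 list, that of KIFC3 in all 4 lists, and that of CYP4F22 in all lists but siFLI1 replicate 1. Those of CCK and DPF1 were in no H3K27ac list. The H3K4me3 widths were 3685 and 4375 bp in siNEG and 1913 and 1973 bp in siFLI1 at SLC23A2, and 4233 and 4435 bp and 2009 and 2072 bp at KIFC3.

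**Figure D4:**
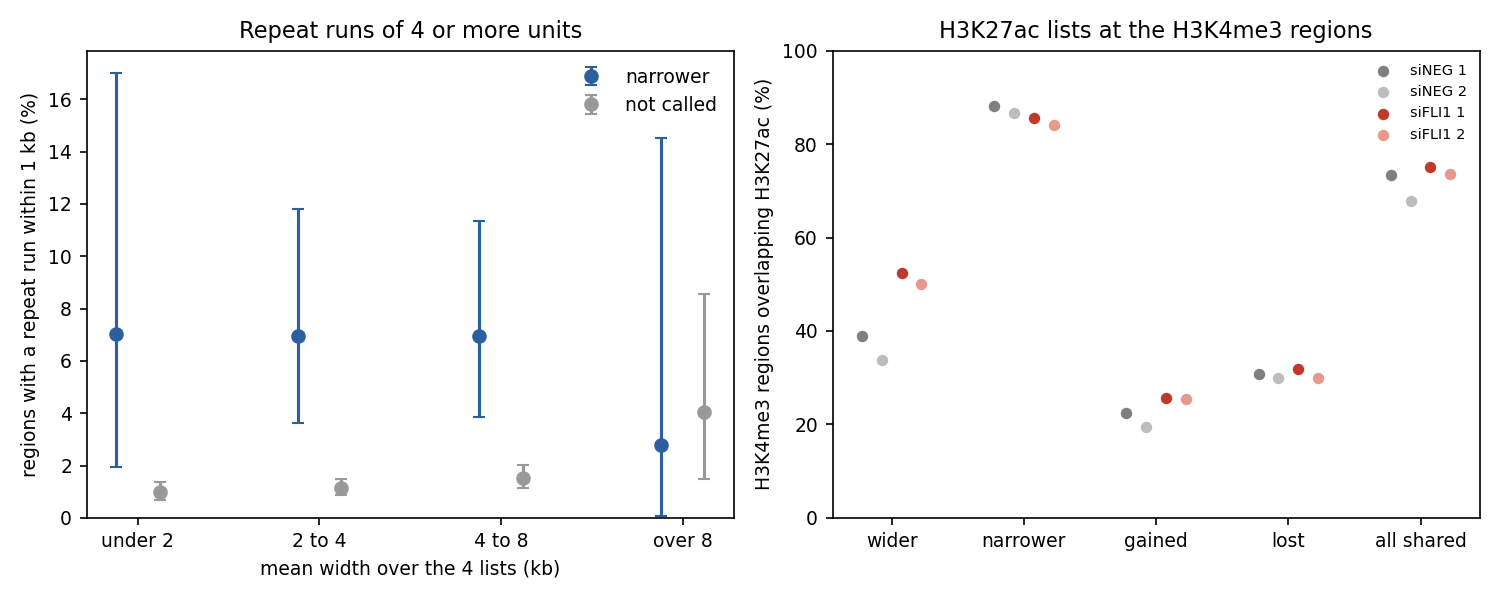
Left, share of narrower and not called shared regions with a run of 4 or more GGAA units inside or within 1 kb (%), by mean width (kb), with exact 95% intervals; the narrower regions are at 7.02% and 6.94% below 4 kb and the others at 0.998% and 1.15%. Right, share of H3K4me3 regions that overlap H3K27ac (%) in each of the 4 H3K27ac lists; in wider regions the siNEG points are at 39.0% and 33.7% and the siFLI1 points at 52.4% and 50%.

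The upstream 250 bases of promoters were compared through the RefSeq table, in which 34961 starts of 27195 genes could be used. A start belonged to a region when it lay within 1 kb of it, which gave 243 starts at gained, 299 at wider, 620 at narrower, 56 at lost and 15872 at shared regions. The ETS letters CCGGAA (either strand) were in 6.17% of gained promoters (exact 95% interval 3.50 to 9.98%), 12% of wider ones (8.58 to 16.3%), 27.1% of narrower ones (23.6 to 30.8%), 24.9% of all shared promoters and 14.5% of all promoters in the table. They were in 8.93% of lost promoters (2.96 to 19.6%) and in 5.73% of promoters with no region. The letters TATAAA were in 10.7% of gained and 9.36% of wider promoters, against 5.97% of narrower, 4.61% of shared and 10.7% of all promoters. The TEAD letters GGAATG were in 8.64% of gained, 10.4% of wider, 9.09% of shared and 11.9% of all promoters, and the AP-1 letters TGANTCA in 5.35%, 3.34%, 3.32% and 6.54%. The median number of CpG dinucleotides in the window was 15 for gained, 21 for wider and 22 for shared promoters. The IGFBP3 window printed above had 32, that of THBS1 had 24 and that of ACTA2 had 6. A match is a description of letters and shows no binding, and starts of 1 gene share sequence.

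Of 10 genes known to be lowered by the fusion, 5 had gained or wider H3K4me3. This list and those below were chosen with earlier results of these data known, so their counts are no independent check. Of all 12897 coding genes with a region, 1.35% had it gained and 0.264% lost; of the 12284 with a region in all 4 lists, 1.67% had it wider and 4.27% narrower, and the median log2 width difference was -0.09. In the list of 10 genes known to be lowered by EWSR1::FLI1, IGFBP3 was gained and 4 of the 9 in all 4 lists were wider, with none narrower and a median log2 width difference of 0.26. DKK1, a secreted Wnt antagonist, had 2169 and 2067 bp in siNEG and 5064 and 4610 bp in siFLI1 (log2 1.19, SE 0.11, limma adjusted p = 0.0039). LOX, the enzyme that cross-links collagen, had 665 and 1281 bp against 2790 and 2409 bp (log2 1.49, adjusted p = 0.036 by limma). PHLDA1 had 2009 and 2896 bp against 5195 and 5725 bp (log2 1.18), and the forkhead factor FOXO1 had 4364 and 5148 bp against 6619 and 6269 bp (log2 0.44). The matricellular genes CCN1 and CCN2 (log2 0.26 and 0.07), TGFBR2 (0.09), the Notch ligand JAG1 (0.10) and the matrix gene TNC (-0.14) did not pass.

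Of the 16 genes in the list of those that EWSR1::FLI1 activates, all had a region in all 4 lists, 2 were narrower, none was wider, and 15 of 16 had a log2 width difference below 0 (median -0.25), as had 8329 of the 12284 coding genes. After centring each list on its median, 15 of 16 were below 0 (median -0.16), and 5129 of the 10547 distinct regions of coding genes. CCND1, which encodes cyclin D1, had 12761 and 12419 bp in siNEG and 9812 and 10391 bp in siFLI1 (log2 -0.32, limma adjusted p = 0.019). BCL11B had 15303 and 16114 bp against 10720 and 12630 bp (log2 -0.43). Merged again without siNEG replicate 2, its longest piece had a log2 value of -0.10, against -0.40 over the region as merged from 4 lists. The GGAA-microsatellite target NR0B1 (log2 -0.14) and the homeobox gene NKX2-2 (-0.11), whose region spanned 19635 and 20148 bp in siNEG and 18529 and 18406 bp in siFLI1, did not pass.

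In the list of 28 adhesion, matrix and cytoskeleton genes, 26 had a region. A gained one was found at 4 genes, among them CD44, TAGLN and THBS1, and ACTA2 had one in addition to a shared region at another of its starts. Of the 22 in all 4 lists, 7 were wider and 1, the integrin gene ITGA5, was narrower (log2 -0.36), with a median of 0.21 and 18 above 0. Besides TGFBI, the wider genes were 4 collagens, the fibrillin gene FBN1 and the integrin gene ITGA3. COL1A1 had 536 and 1112 bp in siNEG and 2235 and 2542 bp in siFLI1 (log2 1.63), and COL3A1 had 2561 and 2678 bp against 4584 and 4713 bp (log2 0.83). COL6A1 had a log2 difference of 0.97, FBN1 of 1.14 and ITGA3 of 0.65. COL5A1 stood at 0.54. CD44, the hyaluronan receptor, had 0 and 0 bp in siNEG against 978 and 1505 bp in siFLI1. FN1 (log2 0.09), VIM (-0.09), the integrins ITGAV (0.08) and ITGB1 (-0.36) and CDH2 (0.00) did not pass. Of the 6 fibroblast markers, 4 had a region, and COL1A1 and COL3A1 among them were wider; the list's median rank was 10.6 and 10.8 in siNEG and 28.6 and 24.6 in siFLI1, and its part in the result was not tested.

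The regulators of the mesenchymal state were mixed. Of 26 genes, 24 had a region in all 4 lists and 2 were wider, with a median log2 width difference of 0.01. It was 0.10 after centring (17 of 24 above 0), -0.03 by span, and -0.06 to 0.03 when 1 list was left out, the lowest without siNEG replicate 1. KLF4, a zinc-finger factor, had 2030 and 2189 bp in siNEG and 5511 and 5608 bp in siFLI1 (log2 1.40, SE 0.10, limma adjusted p = 0.0035). Merged again without siFLI1 replicate 2, its longest piece had a log2 value of 0.57, against 1.39 over the region as merged from 4 lists. SNAI2, the transcription factor SLUG, had 1636 and 1547 bp against 3293 and 3795 bp (log2 1.15). PRRX1, a homeobox gene of mesenchyme, had 0 and 737 bp in siNEG and 2613 and 2853 bp in siFLI1, so that it was in 3 lists and was not tested. TWIST1 (log2 -0.14), ZEB1 (-0.19) and YAP1 (0.20) did not pass. Of 20 interferon-response genes IRF9 was gained, a region at IFIT3 was gained in addition to a shared one, and none of the 14 in all 4 lists passed. None of 16 genes for H3K4 methyltransferases, their subunits and H3K4 demethylases and none of 14 housekeeping genes passed, with medians of -0.14 and -0.19.

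Promoters of cell cycle and replication genes had lower H3K4me3 ranks, with few calls of width. All 29 had a region in all 4 lists; 4 were narrower, none was wider, and 26 of 29 were below 0 (median -0.25), beside 14 of 16 in the H3K4 methylation list, 10 of 14 housekeeping genes and 8329 of 12284 coding genes. After centring each list on its median the counts were 25 of 29 (median -0.16), 9 of 16, 9 of 14 and 5129 of the 10547 distinct regions of coding genes. MCM2, a subunit of the replicative helicase, had 4232 and 4235 bp in siNEG and 2380 and 2612 bp in siFLI1 (log2 -0.76, limma adjusted p = 0.013). E2F1, the transcription factor of the G1/S switch, had 2539 and 3326 bp against 1671 and 1722 bp (log2 -0.78). PCNA, the sliding clamp, had a log2 difference of -0.46 and -0.11 by span, and CDK2 of -0.33 and -0.15 by span. Ranks of fold enrichment among the 12984 shared regions, as percentiles within each list, moved further. For 22 of the 29 genes both siFLI1 ranks lay below both siNEG ranks, and for 2 they lay above; over all shared regions the shares were 21.9% and 23.2%. The median rank of the 29 was 83.1 and 81.1 in siNEG and 57.1 and 56.5 in siFLI1. The median of the differences was -27.9 points, against 0.11 over all shared regions and 6.83 for the housekeeping genes. When 1 list was left out it lay between -25.9 and -20.6, and that of the housekeeping genes between 3.90 (without siNEG replicate 1) and 9.18.

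Of all 12984 shared regions, 183 (1.41%) stood at least 20 points higher and 244 (1.88%) at least 20 points lower in both siFLI1 lists than in both siNEG lists. In the cell cycle list the rank differences ran from -50.7 to 32.6 points, and the next 5 genes are among the 7 with the largest falls. MCM3, a helicase subunit, stood at ranks 91.4 and 86.5 in siNEG and 41.6 and 35 in siFLI1. CDC6, which loads the helicase, stood at 89.3 and 96.9 against 48.8 and 39.6, and RRM2, a subunit of ribonucleotide reductase, at 99.0 and 69.2 against 30.7 and 37.9. The mitotic kinase gene AURKB stood at 90.2 and 85.5 against 54.8 and 43.5, and cyclin A2 (CCNA2) at 95.4 and 99.0 against 59.5 and 60.1. In these 5 genes the arms did not overlap. The exceptions with both siFLI1 ranks higher were the origin-binding gene ORC1 and the inhibitor of cyclin-dependent kinases CDKN1A. The adhesion and matrix list had ranks in the other direction, with 13 of 22 genes higher in both siFLI1 lists and 2 lower, and a median difference of 13.5 points, where 23.2% of all shared regions were higher and 21.9% lower in this way. The genes that the fusion activates had 9 of 16 lower and 1 higher by the same rule, with a median of -9.56 points.

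**Figure D5:**
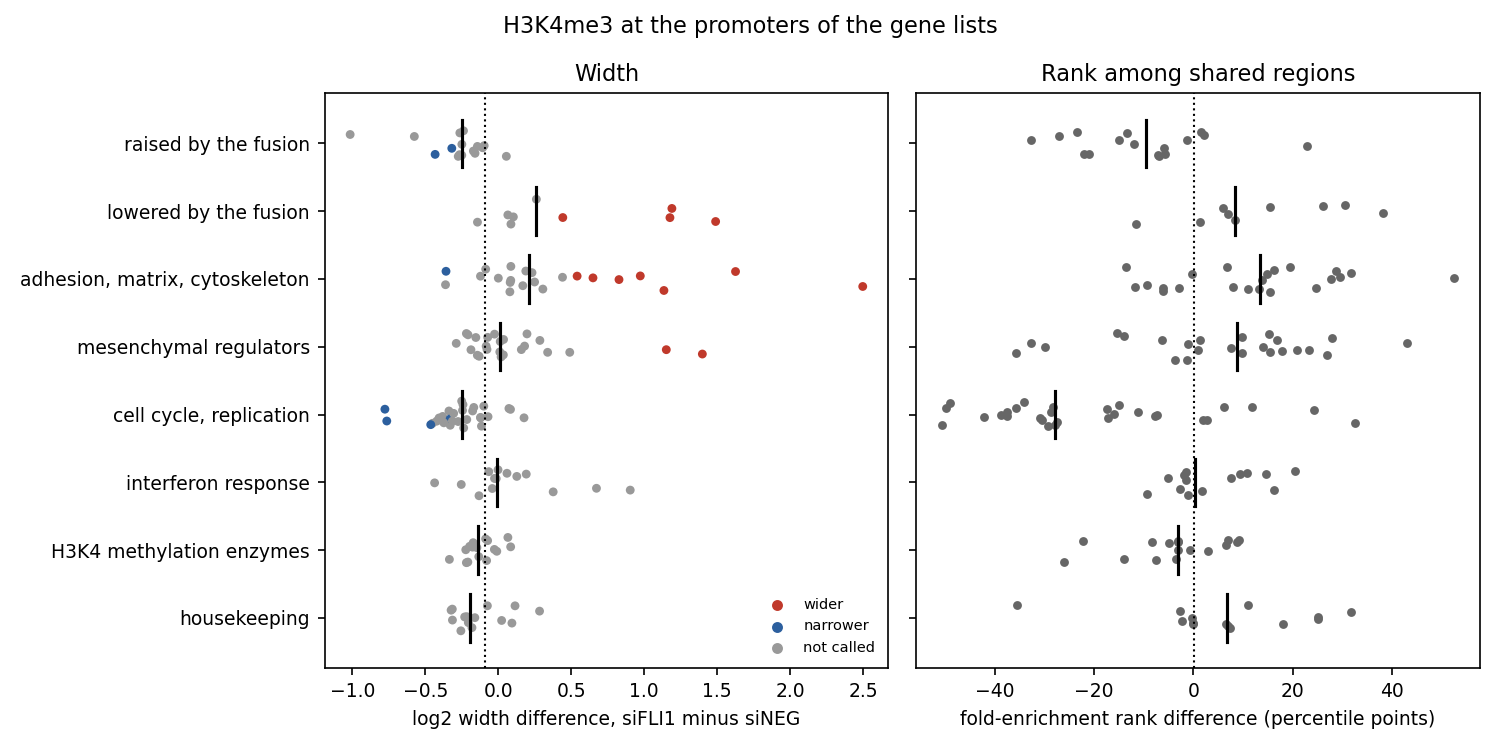
H3K4me3 at promoters of 8 gene lists, 1 point per gene in all 4 lists: log2 width difference (left) and difference in fold-enrichment rank among shared regions in percentile points (right), both siFLI1 minus siNEG. Solid bars are list medians and dotted lines the medians over all coding genes (left) and all shared regions (right); the cell cycle list has a median of -27.9 points and the adhesion list of 13.5 points.

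At the loci named in the study's title, the FLI1 and ETS1 promoters were wider and EWSR1, whose promoter drives the fusion, was not called. The ETS1 region (chr11:128519189-128523048) measured 1691 and 1472 bp in siNEG and 3753 and 2929 bp in siFLI1, so that both siFLI1 values were above both siNEG values (log2 1.07, SE 0.16, limma adjusted p = 0.019). The FLI1 region (chr11:128693171-128695840) measured 1328 and 1470 bp against 2670 and 2213 bp (log2 0.80, SE 0.16, limma adjusted p = 0.037). The EWSR1 region (chr22:29264632-29272839) measured 7009 and 8165 bp against 5938 and 6916 bp, so that the siFLI1 values lay below both siNEG values but by little next to the spread within each arm (log2 -0.24, SE 0.10, limma adjusted p = 0.19). The FLI1 call was lost in each fit that left out 1 list (log2 0.66 to 0.93), and the ETS1 call was lost without siNEG replicate 2 or either siFLI1 list (log2 0.89 to 1.25) and in limma without trend. Histone data do not measure the FLI1 transcript, so the knockdown itself is not checked by these lists.

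H3K27ac, a mark of active promoters and enhancers, was read at the same regions in 2 lists per arm that the H3K4me3 calls did not use. Its overlap with wider regions was higher in siFLI1: 39.0% and 33.7% of the 246 overlapped H3K27ac in siNEG and 52.4% and 50% in siFLI1 (difference 14.8 percentage points, pooled SD 2.91, n = 2 per arm; exact permutation test, two-sided, p = 0.333). In all shared regions the shares were 73.3% and 67.9% against 75.2% and 73.7%. More H3K27ac bases in both siFLI1 lists than in both siNEG lists were found at 86 wider regions (35%) and fewer at 4 (1.63%), while over all shared regions the shares were 31.0% and 7.55%. At narrower regions the overlap was 88.2% and 86.8% in siNEG and 85.7% and 84.2% in siFLI1, with more bases at 125 (26.7%) and fewer at 94 (20.1%). Where H3K27ac was present in all 4 lists, its log2 width differed by 0.47 at 74 wider regions, 0.05 at 379 narrower ones and 0.17 at 8284 shared ones. In the pair of H3K27ac lists made with antibody ab4729, 1 per arm and so without replicates, the overlap of wider regions was 22.8% in siNEG and 44.7% in siFLI1, and that of all shared regions 60.9% and 68.5%. Its bases were more in siFLI1 at 43.1% of wider regions and at 54.5% of all shared regions.

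Counted by any overlap, fewer gained and lost regions than shared ones overlapped H3K27ac. For lost regions this order depended on the rule. With 50% of the region covered, the mean share in siNEG was 25.2% for lost, 15.3% for gained and 23.8% for shared regions. In siFLI1 these means were 23.3%, 20.9% and 30.5%. By any overlap, H3K27ac was at 22.5% and 19.4% of gained regions in siNEG and 25.6% and 25.4% in siFLI1. For lost regions the shares were 30.7% and 29.9% in siNEG against 31.9% and 30% in siFLI1. Over all merged regions the shares were 53.8% and 50.4% against 55.7% and 54.2%, and in regions of 1 list only 19.1% and 19.6% against 21.1% and 19.4%. For lost regions the difference of 0.68 points was smaller than the pooled SD of 1.03. Of the 15 gained coding promoters named above, 7 were in no H3K27ac list, among them IGFBP3 and THBS1. ACTA2 held 2833 and 3080 bp of H3K27ac in siNEG and 3077 and 2926 bp in siFLI1, that is, in both arms. More H3K27ac in both siFLI1 lists was found at 50 of the 449 gained regions (11.1%). Among those, ABL2 held 187 and 0 bp against 1723 and 1674 bp, and CRYAB 1172 and 1086 bp against 2301 and 2468 bp. Of the 15 wider promoters, 5 were in no H3K27ac list (CACNA2D3, CCDC3, CREB3L1, NT5C2 and SEMA5B) and 9 held more in both siFLI1 lists than in both siNEG lists, as did 35% of all 246 wider and 31.0% of all shared regions. Among the 9, TNS3 had 0 and 0 bp against 1415 and 1294 bp, TGFBI 0 and 9 bp against 1806 and 1677 bp and EDN1 0 and 0 bp against 778 and 1007 bp. In the ab4729 pair TGFBI had 413 bp in siNEG and 524 bp in siFLI1, TNS3 had 0 and 971 bp and EDN1 had 0 and 457 bp. PRDM1 had 614 bp in siFLI1 replicate 2 and none in the others. Of the 15 narrower promoters 10 were in no H3K27ac list, including PTF1A, FABP7, TFAP2B, VCAN and SHH. The 468 narrower regions as a class differed: H3K27ac overlapped 88.2% and 86.8% of them in siNEG and 85.7% and 84.2% in siFLI1. PLEKHA7 held 4947 and 4610 bp of H3K27ac in siNEG and 4677 and 3886 bp in siFLI1.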

How the data were processed

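Per the labels' protocols, TC-32 chromatin was fixed with 1% formaldehyde for 10 min and sheared to 200 to 900 bp, and libraries were made from 10 ng of DNA with 8 PCR cycles. The submitters' processing notes name cutadapt 4.4, BWA 0.7.17, Picard 2.17.11 and MACS2 2.1.1 and the builds hg38 and dm6, without roles. The authors deposited 1 narrowPeak list per sample, with a fold enrichment (ratio), −log10 p- and q-values and a score per peak. These are the authors' values and were used only within a list, as percentiles. Read depth is not given in the sources used here.

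Intervals were merged and annotated with GENCODE 44 (Python 3.11.15, pandas 2.3.3). Width was tested with limma 3.58.1 (R 4.3.3), with trend and no covariate, on log2 covered bases of the regions in all 4 lists, with Benjamini-Hochberg adjustment at 0.05, after a test on simulated data. Single values per list had an exact permutation test. Gained and lost regions are counts with no test. Named were the 15 gained and 15 lost coding promoters with the highest mean percentile, 5 of each away from promoters, the 15 wider and 15 narrower coding promoters with the largest difference, FLI1, EWSR1 and ETS1, and list members. A gene's region was the widest within 1 kb of a transcript start. KIFC3, SLC23A2, DPF1 and CYP4F22 were named for their GGAA runs after their values were seen. Members and lists were chosen with earlier results of these data known. Peaks on other contigs were left out. The values of 1 list member are not reported here.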

Additional observations from a re-analysis of the deposited data

How the results depend on the processing

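Over 69 results and 849 alternatives, 624 kept direction and, where one was tested, the call. A further 182 single-region calls lost the threshold, most often without siFLI1 replicate 1, while 41 values moved and 2 reversed. The 624 include values for 51 single regions kept as merged from 4 lists, with 1 list left out. Those had no test and by construction could not shift beyond the pooled SD, so they show no stability. Wider regions numbered 246 and were 116 by span, 118 in limma without trend, 91 among regions of 1 interval per list and 3 to 143 when 1 list was left out. Narrower regions numbered 468 and were 241 after centring, 121 by span, 57 without trend, 54 among regions of 1 interval per list, 721 with a mean width of 1 kb or more and 19 to 59 when 1 list was left out. With a replicate block the counts were 357 and 796; replicate numbers did not pair the lists (correlation of deviations -0.0086 over 12984 regions). Gained regions ranged from 631 to 1540 and lost ones from 808 to 3559 when 1 list was left out, since absence from or presence in a single list then sufficed, and lost ones were 172 with absence required within 1 kb. The H3K27ac share at lost regions, 0.68 points, was -1.88 when 50% of the region had to be covered and ran from -0.26 (without siFLI1 replicate 1) to 1.62 (without siFLI1 replicate 2) when 1 list was left out. A left-out list also changes the merging. Merged again, the region at KLF4 fell into 2 pieces without siFLI1 replicate 2 and the log2 value of the longest was 0.57, against 1.39 over the region as merged from 4 lists. Likewise the values were 0.20 against 0.48 at COL5A1 without siFLI1 replicate 1, -0.18 against -0.30 at CCND1 and -0.59 against -1.32 at METTL2B without siNEG replicate 1. Without siNEG replicate 2 they were -0.10 against -0.40 at BCL11B, -0.40 against -0.58 at E2F1, -1.27 against -2.31 at PTF1A, -1.21 against -1.91 at TFAP2B and -0.23 against -0.39 at ITGA5. PLEC without siFLI1 replicate 2 and EPB41L3 without siNEG replicate 1 had no region left in all 3 lists and so no value. The cause of the other changes was not tested. Alternatives for gene-list medians, GGAA runs, ranks, H3K27ac width and regions kept as merged were chosen after seeing the data. With 2 lists per arm, no single value per list could pass 0.05 in the exact permutation test, and depth is unknown.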

Other observations

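ETS1 ChIP-seq intervals, which the H3K4me3 comparison did not use, overlapped 2.11% and 1.37% of the shared H3K4me3 regions in siNEG and 11.2% and 16.5% in siFLI1. At wider regions the shares were 0.813% and 0.407% in siNEG and 5.28% and 12.2% in siFLI1, and at narrower regions 2.35% and 1.5% against 11.1% and 15.2%. At gained regions they were 0% and 0% against 0.668% and 0.668%. The difference between classes was not tested.

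Base composition differed between the classes. The median CpG observed-to-expected ratio around the region centre was 0.56 in gained, 0.24 in lost, 0.49 in wider, 0.40 in narrower and 0.57 in all shared regions.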
